A study of Austrofundulus limnaeus and Nothobranchius furzeri and Aphyosemion australe with 30 samples.

Results

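The regions described here are 488 of the 68977 ATAC-seq consensus peaks of the South American killifish Austrofundulus limnaeus (0.707%), an annual fish whose embryos can enter diapause. A peak was included when it was less accessible before diapause than later, by a similar amount whether the embryo had gone on developing or had entered diapause. ATAC-seq cuts open chromatin with the Tn5 transposase, and the value of a peak is its number of reads divided by 1 factor per library, called the normalized read count below. Embryos were wild type and untreated, and each library came from a pool of dissected whole embryos. Of the later stages, Dev (2 libraries) was past the onset of the heartbeat and kept developing, at over 60 beats per minute, while Dia 6d (3 libraries) and Dia 1m (2 libraries) were sampled after 6 days and after 1 month of diapause. The starting stage, Pre-Dia (2 libraries), was recognised by its Kupffer's vesicle.

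Diapause is a reversible arrest in which an annual killifish embryo stops growing and slows its metabolism, so that it can outlast the dry season in the soil. Kupffer's vesicle is a transient fluid-filled organ of the fish embryo that sets left and right, and it is present while somites form. After that stage an embryo can take either of 2 routes: it goes on developing, or it enters diapause. The study's methods place the onset of the heartbeat near the loss of the vesicle, before either route. Both routes are thus compared here with a stage before that onset. Per the study's methods the Pre-Dia pools came from the earliest matings of young parents, whose offspring were thought mostly to bypass diapause. An ATAC-seq peak marks DNA that is accessible to the transposase, usually a promoter or an enhancer, and a peak with more reads on both routes than at the Pre-Dia stage is described here as opened on both routes. In whole embryos a gain cannot be told apart from a larger share of cells in which the region was already open. On the diapause route it also cannot be told apart from a difference between embryos bound for diapause and those thought to bypass it.

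The peaks were chosen by their measured values in these 9 libraries, on the scale log2(normalized read count + 1). Both Pre-Dia libraries had to lie below all 7 Dev, Dia 6d and Dia 1m libraries, which was so for 2942 peaks, or 4.27% of all consensus peaks. The Pre-Dia mean then had to lie at least 1 below the mean of each later stage, which left 561 peaks. The means of Dev, Dia 6d and Dia 1m had to lie within 1 of each other, which left the 488 members. Of the 73 peaks that this last step left out, Dia 1m was the highest stage in 35, Dia 6d in 27 and Dev in 11. Every comparison among these 9 libraries was used by this choice, so the levels and differences below are a description and carry no test.

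The same steps turned round, with both Pre-Dia libraries above all 7 later ones, gave 130 mirrored peaks that were closed on both routes. The opened and the mirrored set differed most at the step of size. Before it, fewer peaks had Pre-Dia lowest than had it highest, 2942 against 3594 (5.21%), and after it 561 peaks remained on the opened side and 144 on the mirrored side.

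The Pre-Dia libraries differed strongly in depth, and this bears on every value below. The 7 later libraries held between 6398313 and 10366925 reads in peaks. Pre-Dia replicate 1.5 held 2989049 and Pre-Dia replicate 2 held 11445905, a ratio of 3.83. A single read was worth a normalized count of 2.74 in Pre-Dia replicate 1.5, against 0.653 in Pre-Dia replicate 2 and between 0.724 and 1.26 in the later libraries. No peak was listed at 0 in any library, so a value of 1 read may be a floor. The labels do not say what the replicate number 1.5 stands for.

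The members were modest peaks that stood close to the level of an ordinary peak in the later stages and well below it in Pre-Dia. Their median normalized read count was 50.2 and 43.4 in the Dev libraries, 52.5, 52.4 and 49.0 in the Dia 6d libraries and 45.6 and 54.7 in the Dia 1m libraries. It was 11.0 in Pre-Dia replicate 1.5 and 22.2 in Pre-Dia replicate 2. The 7 later medians lay close together, and the fold between the Pre-Dia libraries was larger than that between any of those 7. Over all consensus peaks the medians were nearly level, between 60.1 and 61.7 in the later libraries and 63.0 and 59.5 in the Pre-Dia libraries. The members took between 0.290% and 0.400% of the reads in peaks in the later libraries, against 0.0935% in Pre-Dia replicate 1.5 and 0.184% in Pre-Dia replicate 2.

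**Figure D1:**
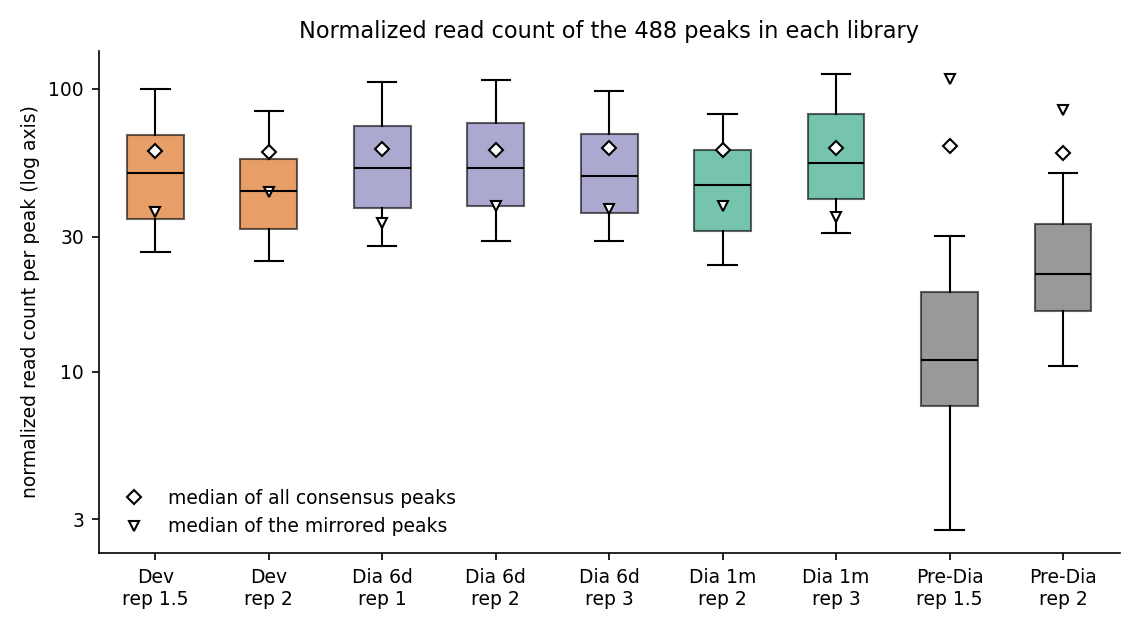
Normalized read count (log axis) of the 488 peaks in each of the 9 libraries. Boxes span the quartiles with the median as a line, whiskers reach the 10th and 90th percentiles, diamonds are medians of all 68977 consensus peaks and triangles medians of the 130 mirrored peaks. The members' medians lie between 43.4 and 54.7 in the later libraries, against 11.0 and 22.2 in the Pre-Dia libraries, while the medians of all peaks stay near 60.

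On the log2 scale the members exceeded Pre-Dia by a median of 1.41 in Dev, 1.59 in Dia 6d and 1.52 in Dia 1m, against 0.00, 0.01 and 0.04 over all peaks. The smallest of a member's 3 differences had a median of 1.24 and reached 3.08. It lay between 1 and 1.5 in 354 members (72.5%), between 1.5 and 2 in 103, between 2 and 2.5 in 26 and above 2.5 in 5. Most members thus sat near the threshold. Just inside it, peak_55477 and peak_5797 had smallest differences of 1.0015 and 1.0023. Just outside it, peak_66063 and peak_33177 had 0.9995 and 0.9986. At the limit on the range of the later stages, peak_5510 and peak_44446 were just inside with 0.997 and 0.987, and peak_20177 and peak_8475 were just outside with 1.006 each.

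**Figure D2:**
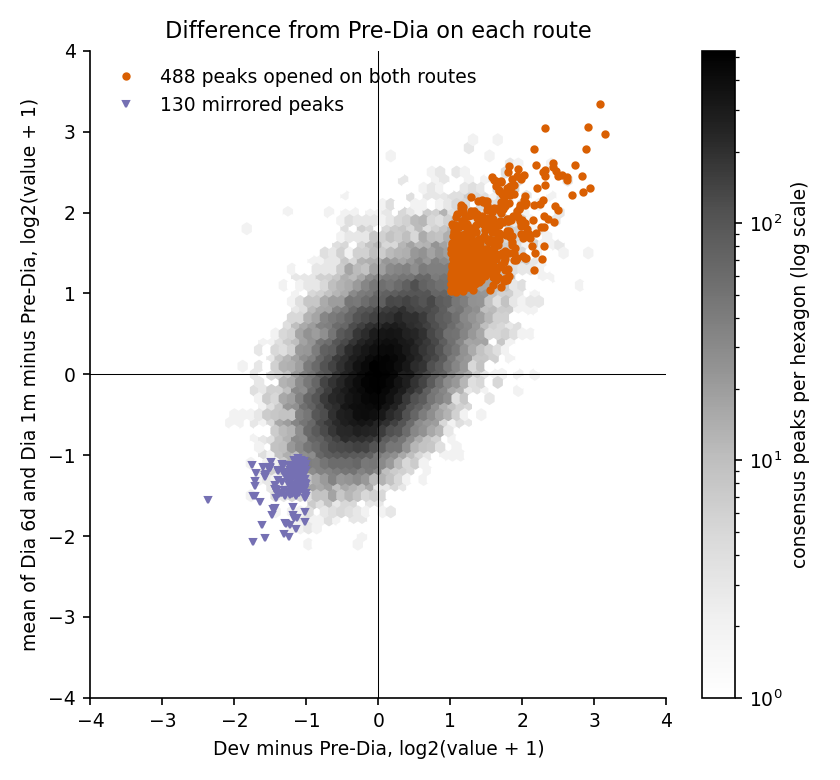
Difference of Dev from Pre-Dia (horizontal axis) and of both diapause stages together (their mean) from Pre-Dia (vertical axis), both on the log2(value + 1) scale. Grey hexagons count all 68977 consensus peaks on a log scale, circles are the 488 peaks opened on both routes and triangles the 130 mirrored peaks; the members lie in the upper right corner by the way they were chosen, with a median of 1.41 in Dev and a reach beyond that of the mirrored peaks.

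The member with the largest smallest difference was peak_61919 on scaffold NW_013954769.1 (20908 to 21027, 120 bp, assembly Austrofundulus_limnaeus-1.0). Its normalized read count was 39.2 and 27.5 in Dev, 38.0, 52.4 and 35.2 in Dia 6d and 21.7 and 65.6 in Dia 1m, against 2.74 and 3.27 in Pre-Dia replicates 1.5 and 2. Both Pre-Dia libraries were low here, at 1 read and 5 reads, so its differences of 3.08, 3.40 and 3.28 for Dev, Dia 6d and Dia 1m rest on a shallow count. The next, peak_65350 (NW_013957356.1, 28 to 218), had 63.9 and 47.8 in Dev, 49.1, 44.0 and 56.6 in Dia 6d and 40.2 and 57.7 in Dia 1m, against 2.74 and 9.80 in Pre-Dia. It lies near the start of its scaffold, and its Dev libraries stood inside the range of the diapause libraries apart from Dev replicate 1.5, which was highest.

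The third, peak_34516 (NW_013952743.1, 19329 to 19550), had 46.0 and 37.6 in Dev, 27.9, 40.3 and 51.5 in Dia 6d and 38.0 and 38.8 in Dia 1m, against 2.74 and 7.84 in Pre-Dia. Its Dev libraries again fell within the range of Dia 6d. A different Pre-Dia library was lowest in peak_26986 (NW_013952622.1, 460280 to 460468), which had 26.4 and 20.99 in Dev, 44.7, 23.4 and 41.5 in Dia 6d and 29.3 and 12.9 in Dia 1m, against 5.48 and 0.653 in Pre-Dia replicates 1.5 and 2. Those Pre-Dia values stand for 2 reads and 1 read.

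In the last pair of this group the Pre-Dia libraries lay far apart. For peak_11722 (NW_013952463.1, 161494 to 161889) the values were 78.3 and 66.6 in Dev, 56.9, 81.5 and 65.4 in Dia 6d and 54.3 and 73.6 in Dia 1m, against 2.74 in Pre-Dia replicate 1.5 and 31.4 in Pre-Dia replicate 2. For peak_15356 (NW_013952490.1, 1327709 to 1328323) they were 87.7 and 62.2 in Dev, 98.3, 113 and 76.7 in Dia 6d and 63.0 and 87.5 in Dia 1m, against 2.74 in Pre-Dia replicate 1.5 and 51.0 in Pre-Dia replicate 2. In both peaks the large difference came from 1 read in the shallow library, whereas the deeper one held 48 and 78 reads and lay below the later libraries by much less.

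The strongest members by level gave smaller differences on many more reads. The highest, peak_713 (NW_013952403.1, 5952059 to 5953443, 1385 bp), was also the widest member. It had 625 and 400.3 in Dev, 501 and 579 and 446 in Dia 6d and 395 and 612 in Dia 1m, against 151 in Pre-Dia replicate 1.5 (55 reads) and 304 in Pre-Dia replicate 2 (465 reads). Its 3 differences from Pre-Dia were 1.22, 1.24 and 1.196 for Dev, Dia 6d and Dia 1m, and they lay closest together among all members with a mean of at least 100. The libraries of 1 stage varied more than the stages did, and Dia 1m replicate 2 was less than 1.5 times above Pre-Dia replicate 2.

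Next came peak_65801 (NW_013958101.1, 1602 to 2053), which is among the members whose Pre-Dia libraries were alike. It had 522 and 392 in Dev, 308, 278 and 262 in Dia 6d and 342 and 295 in Dia 1m, against 123 and 133 in Pre-Dia. Both Dev libraries lay above all 5 diapause libraries, so this peak opened on both routes and further in Dev. The opposite order held in peak_24163 (NW_013952586.1, 1 to 292), with 221 and 248 in Dev, 312, 349 and 363 in Dia 6d and 279 and 287 in Dia 1m, against 134 and 96.7 in Pre-Dia. There both Dev libraries lay below all 5 diapause libraries.

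For peak_52998 (NW_013953416.1, 82484 to 83711) the values were 331 and 238 in Dev, 309, 319 and 269 in Dia 6d and 186 and 365 in Dia 1m, against 87.7 and 157 in Pre-Dia. Here Dia 1m spanned the whole range of the later libraries, and Dia 1m replicate 2 lay close to Pre-Dia replicate 2. For peak_5279 (NW_013952421.1, 282212 to 282349) they were 226 and 182 in Dev, 314, 329 and 255 in Dia 6d and 186 and 254 in Dia 1m, against 107 and 75.1 in Pre-Dia. For peak_60219 (NW_013954349.1, 19257 to 19924) they were 273 and 124 in Dev, 220, 182 and 180 in Dia 6d and 170 and 198 in Dia 1m, against 43.9 and 114 in Pre-Dia. Dev replicate 2 stood only just above Pre-Dia replicate 2 in this last peak, although its stage means differed from Pre-Dia by 1.36, 1.43 and 1.36.

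Of the other members with a mean of at least 100, peak_41937 (NW_013952911.1, 137516 to 137894) was among the most even across the later stages. It had 150 and 133 in Dev, 119, 151 and 138 in Dia 6d and 118 and 154 in Dia 1m, against 90.5 and 49.0 in Pre-Dia, and its later stage means differed by 0.06 at most. In peak_34413 (NW_013952741.1, 194892 to 195449) the diapause libraries were higher, with 148 and 116 in Dev, 212, 227 and 172 in Dia 6d and 153 and 240 in Dia 1m, against 41.1 and 97.4 in Pre-Dia.

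**Figure D3:**
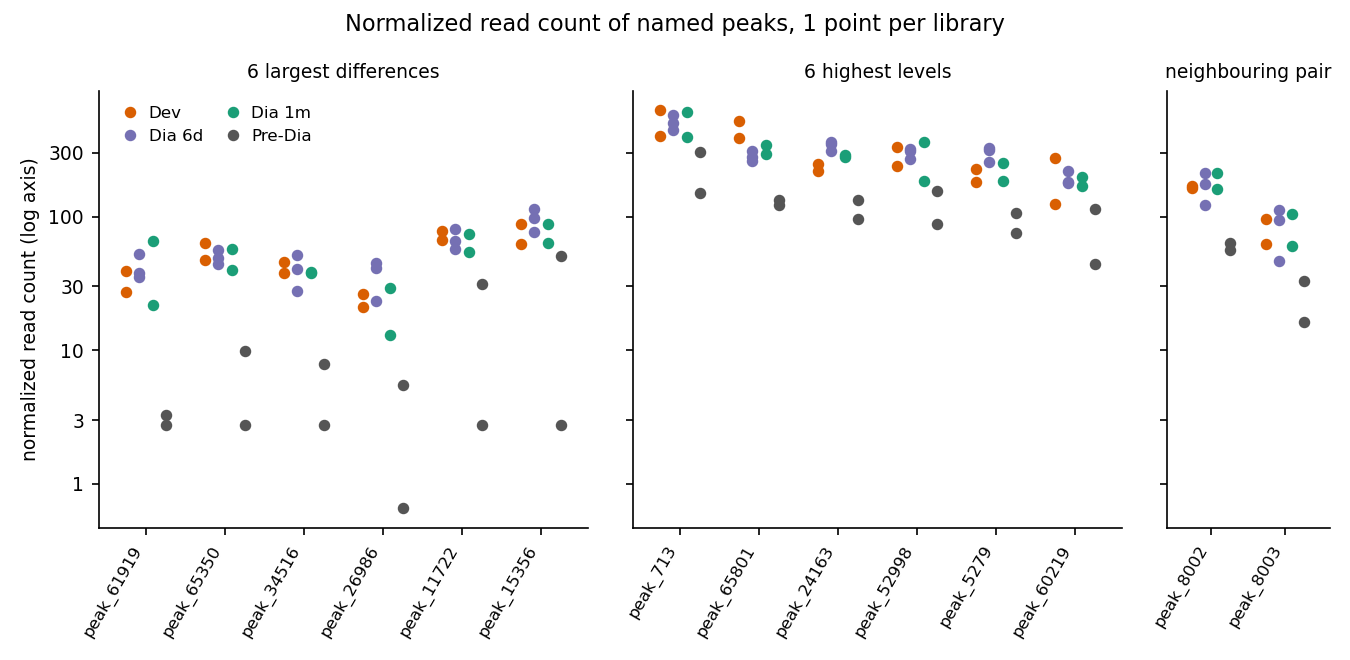
Normalized read count (log axis) of the 6 members with the largest smallest difference, the 6 with the highest level and the neighbouring pair peak_8002 and peak_8003, with 1 point per library and each stage in its own colour. Pre-Dia is lowest in every peak shown; in peak_11722 and peak_15356 its libraries lie at 2.74 against 31.4 and at 2.74 against 51.0, whereas in peak_65801 they lie at 123 and 133.

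Within the limit set by the choice, the members were more often a little higher in diapause than in Dev. Dia 6d exceeded Dev in 316 of 488 members (64.8%) with a median difference of 0.14, and Dia 1m exceeded Dev in 300 (61.5%) with a median of 0.09. Over all peaks these shares were 49.6% and 50.6%. Dev was the lowest of the 3 later stages in 244 members (50%) and the highest in 116 (23.8%), against 39.4% and 39.2% of all peaks. In the mirrored peaks Dev was lowest in 18.5% and highest in 51.5%, so in both sets Dev was most often the stage nearest to Pre-Dia. The commonest order was Dia 6d above Dia 1m above Dev, with 142 members (29.1%, against 16.9% of all peaks).

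These differences were small beside the spread between libraries. The range of the 3 later stage means had a median of 0.42 in the members. Dev and diapause libraries overlapped in 430 members (88.1%), against 74.3% of all peaks, a share that the limit on the range raises. Both Dev libraries lay below all 5 diapause libraries in 44 members (9.02%) and above all of them in 14 (2.87%), against 12.9% each way of all peaks. Dia 1m lay above Dia 6d in 194 members (39.8%), with a median difference of -0.07.

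The difference from Pre-Dia was not shared evenly by the 2 Pre-Dia libraries. The mean of the later stages exceeded Pre-Dia replicate 1.5 by a median of 1.94, and Pre-Dia replicate 2 by a median of 1.00. Replicate 1.5 was the lower of the pair in 398 members (81.6%), against 51.4% of all peaks. Read counts there were very low: the members had a median of 4 reads in Pre-Dia replicate 1.5, 212 of them (43.4%) had 3 reads or fewer and 77 had 1 read, against 2.42% of all peaks with 3 reads or fewer. A count of 18.0 reads in that library would have equalled the members' median level in the later libraries. In Pre-Dia replicate 2 the members had a median of 34 reads.

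When each Pre-Dia library was used alone in place of the pair, 434 members (88.9%) still met the conditions with replicate 1.5 and 161 (33.0%) with replicate 2. The 107 members (21.9%) that met them with each alone were still chosen on the same Pre-Dia libraries, so they are not a separate check. Their median values were 43.4 and 42.0 in Dev, 48.0, 48.7 and 45.3 in Dia 6d and 38.0 and 52.7 in Dia 1m, against 13.7 and 15.7 in Pre-Dia replicates 1.5 and 2. In the other 381 members the Pre-Dia medians were 11.0 and 24.8. Of the peaks described above, peak_61919, peak_65350, peak_34516, peak_26986, peak_65801, peak_5510, peak_8002 and peak_8003 belong to the 107. Only 64 members had 10 or more reads in Pre-Dia replicate 1.5, and 12 of these are among the 107. In the 64 the later stages exceeded replicate 1.5 by a median of 1.31 and replicate 2 by a median of 1.38. A member higher in replicate 1.5 had to be lower in replicate 2 to be chosen, so nothing is drawn from the closeness of these medians.

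**Figure D4:**
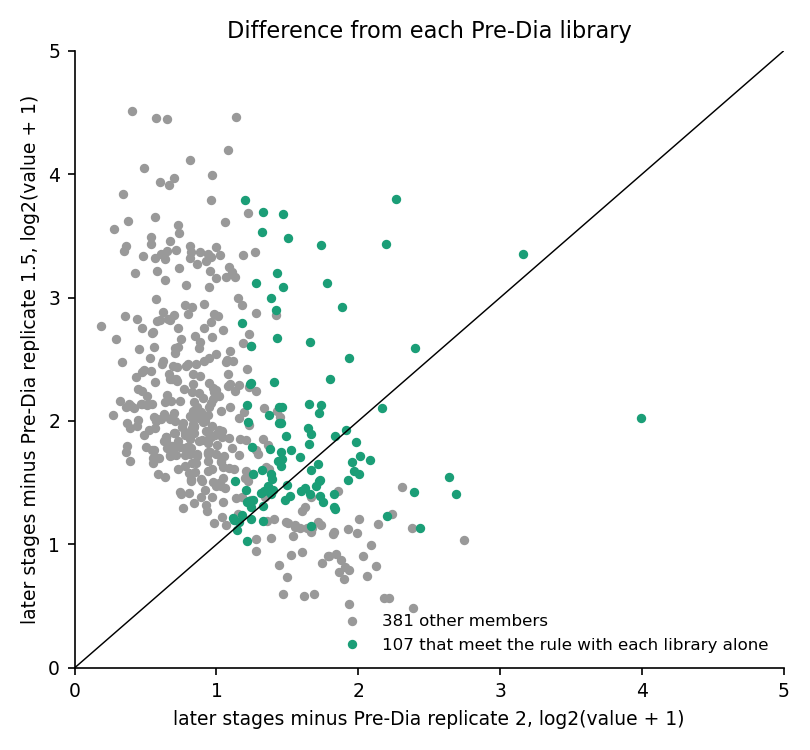
Mean of the later stages minus Pre-Dia replicate 2 (horizontal axis) and minus Pre-Dia replicate 1.5 (vertical axis) for the 488 members on the log2(value + 1) scale, with a line of equality. Most points lie above the line, in 398 members replicate 1.5 is the lower library, and the 107 members in colour meet the conditions with each library alone.

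Choosing the peaks again without 1 library left that library free to be read. Without Pre-Dia replicate 1.5 the conditions gave 1016 peaks, of which 161 were members, and replicate 1.5 itself lay below all later libraries in 28.8% of the 1016, against 20.7% of all peaks, with a median difference of 0.18. Without Pre-Dia replicate 2 they gave 3428 peaks, of which 434 were members, and replicate 2 lay below all later libraries in 23.9% of them, against 14.2% of all peaks, with a median difference of 0.21. Peaks chosen on either Pre-Dia library alone were thus seldom as low in the other one.

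The later libraries were left out in the same way, and each was read against the Pre-Dia libraries, which had chosen the peaks. Their shares are therefore not set against those above. Peaks chosen without a Dia 6d library numbered between 479 and 513, and the left-out library lay above both Pre-Dia libraries in 95.8%, 97.1% and 94.9% of them, against 35.7%, 33.9% and 32.8% of all peaks. Without Dia 1m replicate 3 there were 401 peaks and the share was 96.3%, against 36.6% of all peaks. Without Dia 1m replicate 2 there were 668 and the share was 71.9%, against 34.9%. Without Dev replicate 1.5 there were 474 peaks and the share was 86.9%, against 31.7% of all peaks. Without Dev replicate 2 there were 672 and the share was 77.8%, against 30.2%. The reading against Pre-Dia is shared by all of these, since the same Pre-Dia libraries had chosen the peaks.

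A fit across all 68977 peaks (limma on log2(value + 1), Benjamini-Hochberg adjustment, threshold 0.05) gives the share of members that each comparison called, as a description, since each comparison had chosen them. In Dev against Pre-Dia it called 38 members higher, where 0.165% of all peaks were called higher. In Dia 6d against Pre-Dia it called 341, with 3.45% of all peaks, and in Dia 1m against Pre-Dia it called 221, with 2.62% of all peaks. No member was called lower in any of the 3, and at an unadjusted 0.05 the members reached were 474, 486 and 471, where 6.17%, 12.5% and 11.7% of all peaks were higher at that level. These 3 comparisons share the Pre-Dia libraries. A total of 29 members were called in all 3, out of 35 peaks called in all 3 in the whole table.

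Count models on the reads of 8 libraries, without Dia 1m replicate 3, gave other numbers. They kept 1 Dia 1m library, so in Dia 1m the libraries changed as well as the model. The Dia 1m counts below are therefore not set against those on 9 libraries. edgeR called 47 members higher in Dev, 229 in Dia 6d and 26 in Dia 1m, where 0.323%, 2.63% and 1.08% of all peaks were called higher, and DESeq2 called 18 and 160 in Dev and Dia 6d, where the shares of all peaks were 0.128% and 1.55%. In Dia 1m DESeq2 set aside low counts and gave an adjusted value to 54266 peaks, 270 of them members, and called 2 of these 270 higher, where 0.557% of the 54266 were called. Without Pre-Dia replicate 1.5 limma called 30 members in Dev, 109 in Dia 6d and 69 in Dia 1m, where it called 239, 2068 and 1320 of all 68977 peaks higher. Without Pre-Dia replicate 2 it called 311, 403 and 362 members, where it called 2457, 5555 and 5279 of all peaks, so the calls over the whole table moved as well. Of the 107 members that meet the conditions with each Pre-Dia library alone, limma on all 9 libraries called 21 in Dev, 85 in Dia 6d and 55 in Dia 1m. It called 0.165%, 3.45% and 2.62% of all peaks higher. The same comparisons had chosen the 107, so these counts are a description.

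The members were narrow. Their median width was 270.5 bp, against 379 bp for all consensus peaks and 307.5 bp for the mirrored peaks, and 373 members (76.4%) were narrower than the median of all peaks. The narrowest quartile of all consensus peaks (98 to 264 bp) held 231 members (47.3%) and the widest held 41 (8.40%). The values of narrow peaks varied more in the shallow library: the SD of Pre-Dia replicate 1.5 minus the later mean was 0.90 over the narrowest quartile and 0.62 over the widest, against 0.61 and 0.46 for Pre-Dia replicate 2. The part of this spread in the choice of narrow peaks was not tested. By the mean of all 9 libraries, the lowest quartile held 226 members (46.3%) and the highest 19 (3.89%). That mean includes the Pre-Dia libraries, in which members had to be low, so nothing is drawn from these shares. Over the 7 later libraries the mean had a median of 49.4 in the members, against 61.5 in all peaks.

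The members lay on 317 of the 6816 scaffolds that carry a peak, and 243 of these scaffolds held 1 member each. Scaffolds with 50 or more peaks held 318 members (65.2%), against 53.1% of all peaks and 49.2% of the mirrored peaks. Another member lay within 10 kb of 24 members (4.92%), always as a pair. Another mirrored peak lay within 10 kb of 1.54% of the mirrored peaks. A larger set has more such neighbours by its size, and the sets hold 488 and 130 peaks, so these shares are not compared. The scaffold with most members was NW_013952404.1, with 15 of its 297 peaks (5.05%). Those 15 lay between 2829168 and 9732923, and their median values were 48.5 and 27.5 in Dev, 41.3, 51.5 and 46.5 in Dia 6d and 40.2 and 47.7 in Dia 1m, against 8.22 and 19.0 in Pre-Dia.

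Around the members the other peaks were low in Pre-Dia too. Among 207 other peaks within 2 kb of a member the later mean exceeded Pre-Dia replicate 1.5 by a median of 0.59 and Pre-Dia replicate 2 by a median of 0.28. At 10 to 50 kb the medians were 0.34 and 0.07 (1943 peaks), at 100 to 500 kb they were 0.20 and 0.03 (8229 peaks), and on scaffolds with no member they were -0.10 and -0.05 (47301 peaks). At these distances from a member the difference from replicate 1.5 was the larger. The members set the distances and were mostly lower in replicate 1.5, so nothing is drawn from how far each difference reached. Of the 207 nearest peaks 12.6% had both Pre-Dia libraries below all 7 later ones, against 2.88% on scaffolds with no member. Scaffolds with and without a member were not matched for their number of peaks.

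Whole stretches of scaffolds were low in Pre-Dia replicate 1.5. At each peak this library was set against the median of the other 8 libraries, and the median of these differences was taken over 21 consecutive peaks. Among 34852 such windows this library lay at least 1 lower in 992 (2.85%) on 67 scaffolds, and in none was it as far above. Of 298 members at the centre of such a window, 42 (14.1%) lay in those low windows. Pre-Dia replicate 2 had 91 low windows on 2 scaffolds, with 6 members, and the later libraries had between 0 and 31, with no member. The members were chosen for low values in the Pre-Dia libraries, and each counts in its own window. The choice thus favours members in low Pre-Dia windows over low windows of later libraries, and nothing is drawn from these shares. Over the 158 scaffolds of 50 or more peaks that held a member, the other peaks exceeded Pre-Dia replicate 1.5 by a median of 0.24 in the later stages, against -0.10 over the 192 that held none. The values of single scaffolds overlapped, from -0.72 to 0.98 with a member and from -0.57 to 0.66 with none. The 2 groups were not matched for the number of peaks on a scaffold. Shifts along a scaffold reach many peaks at once, so members of 1 stretch are not separate observations.

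When each library was centred on its own median over the peaks of a scaffold, which was done for scaffolds of 50 or more peaks and chosen after the data were seen, 261 peaks met the conditions in place of 318, and 190 peaks were in both sets. The mirrored peaks on those scaffolds numbered 63 after centring and 64 before it.

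A stretch at the start of NW_013952436.1 showed the reverse case, a low level in Pre-Dia replicate 2. It was picked out after its values were seen. All 7 members of this scaffold lay in its first 200 kb, among 78 peaks between 7949 and 194536. Over the 71 other peaks of the stretch the median values were 150 and 150 in Dev, 88.2, 174 and 137 in Dia 6d and 93.4 and 180.0 in Dia 1m, against 121 in Pre-Dia replicate 1.5 and 52.3 in Pre-Dia replicate 2. The later mean exceeded replicate 2 by at least 1 in 60 of these 71 peaks and replicate 1.5 in 0 of them. The medians of the difference were 1.30 for replicate 2 and 0.19 for replicate 1.5. Beyond 200 kb, over 186 peaks, they were 0.20 and 0.35. Of those peaks 8 exceeded replicate 2 by at least 1, and 41 exceeded replicate 1.5 by as much. At the edge, the last 10 peaks of the stretch exceeded replicate 2 by a median of 1.11. For the next 10 this median was -0.10, with a range from -0.19 to 0.50. Replicate 1.5 went the other way there, with medians of 0.35 in the last 10 and 0.98 in the next 10.

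The neighbouring members peak_8002 (117194 to 117546) and peak_8003 (118225 to 118489) lie in this stretch and were low in both Pre-Dia libraries. For peak_8002 the values were 163 and 169 in Dev, 123, 213 and 175 in Dia 6d and 162 and 211 in Dia 1m, against 63.0 and 56.2 in Pre-Dia replicates 1.5 and 2. For peak_8003 they were 62.2 and 95.5 in Dev, 46.9, 111 and 94.3 in Dia 6d and 60.8 and 105 in Dia 1m, against 32.9 and 16.3 in Pre-Dia. The later mean exceeded replicate 1.5 by 1.43 in peak_8002 and by 1.23 in peak_8003. Of the other 5 members in the stretch, peak_7963, peak_7965 and peak_8019 exceeded replicate 1.5 by more than 1, whereas peak_7994 and peak_7996 exceeded it by 0.83 and 0.58.

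**Figure D5:**
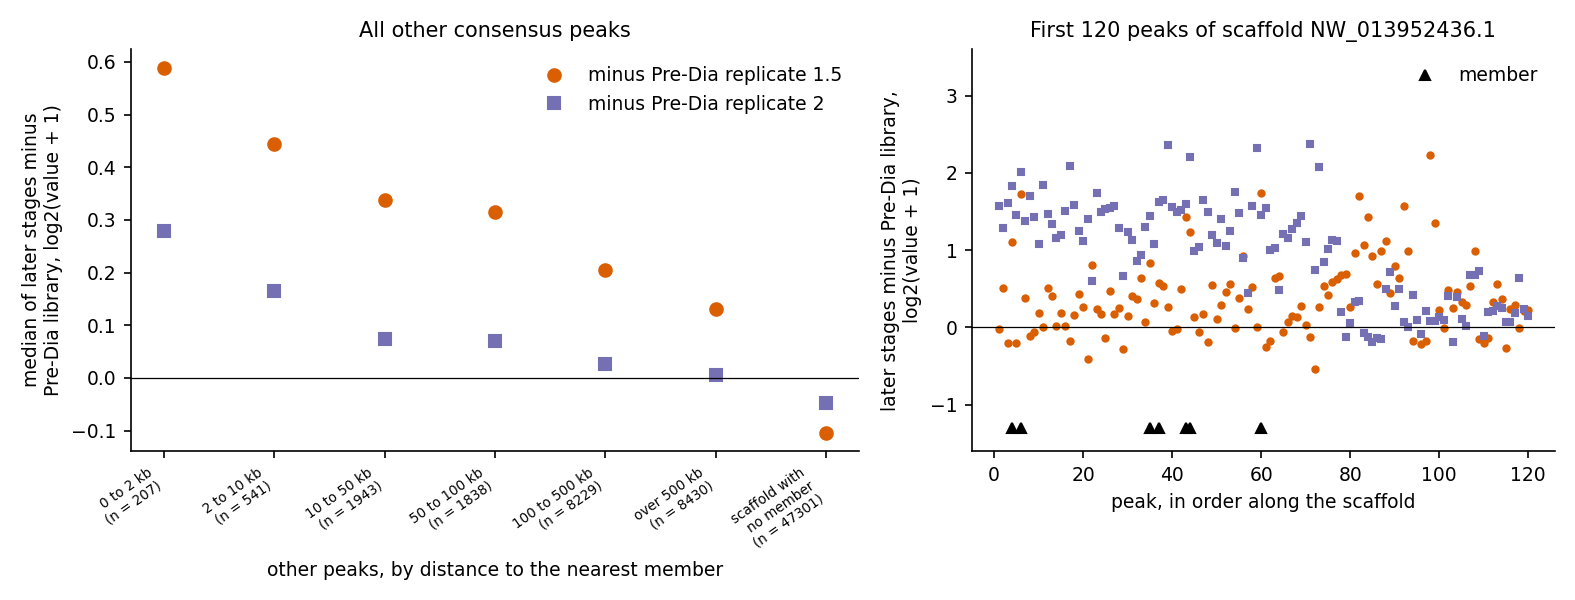
Left, median difference of the later stages from each Pre-Dia library on the log2(value + 1) scale at the peaks that are not members, by distance to the nearest member, with their number in brackets; it is 0.59 and 0.28 within 2 kb and -0.10 and -0.05 on scaffolds with no member. Right, the same difference for the first 120 peaks of scaffold NW_013952436.1 in order, with triangles under its 7 members; the difference from Pre-Dia replicate 2 is high over the first 78 peaks and near 0 after them, and that from replicate 1.5 is not.

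A second, smaller table of 17343 peaks held 3 libraries normalized apart, labelled Dev, Dia 1m and Pre-Dia. At the 1037 peaks with the same coordinates in both tables, its Dev library was Dev replicate 2 times a constant, within 1% at every peak. Its Pre-Dia library, labelled replicate 1, never held more reads than Pre-Dia replicate 1.5 and correlated with it by r = 0.967 across peaks, against 0.852 with Pre-Dia replicate 2. Its Dia 1m library, labelled replicate 1, was not among the 9 used and correlated by r = 0.910 with Dia 1m replicate 2 and r = 0.864 with Dia 1m replicate 3. These correlations are across peaks, which are not independent replicates. Of the members 24 (4.92%) overlapped a peak of this table, against 24.7% of all peaks and 41.5% of the mirrored peaks. Dev was above Pre-Dia in all 24 and Dia 1m in 22, against 50.4% and 49.6% of all overlapping peaks. The strongest of them, peak_713, had 229 in Dev and 151 in Dia 1m, against 82.7 in Pre-Dia, on the scale of that table. The other 5 by level, peak_65801, peak_24163, peak_5279, peak_60219 and peak_34413, had between 62.3 and 233 in Dev and between 70.5 and 181 in Dia 1m, against between 8.01 and 112 in Pre-Dia. The Dev values repeat a library that had chosen the peaks, and whether the Pre-Dia reads are part of those of Pre-Dia replicate 1.5 was not tested, so nothing is drawn from these shares.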

How the data were processed

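Reads were processed by the authors: per the study's methods and the submitters' processing notes they were trimmed (Trim Galore 0.4.1), aligned to Austrofundulus_limnaeus-1.0 (Bowtie2 2.2.5), freed of duplicates (Picard 2.22.1, SAMtools 1.5), shifted for Tn5 (deepTools 3.2.1) and used for peak calling (MACS2 2.1.1.20160309) and consensus peaks. The deposited signal per peak is labelled as RPKM by the authors. It is the read count divided by 1 factor per library and is not divided by width. Dividing by the smallest value gave whole numbers to within 1.06e-04 in every library. Dia 1m replicate 3 (step 0.994) was nonetheless left out of the count models. Depth in peaks was 2989049 to 11445905 reads, so the precision at low counts differs between libraries. Of the 14 labelled samples of this species, 9 libraries of the larger table were used, and 4 of its per-sample columns were left out. The labels do not say whether replicates came from separate clutches, so the spread between them may be technical.

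Members and peak lists were chosen with earlier results of these data known. Values were taken as log2(value + 1) and stage means compared. limma 3.58.1 (trended prior, 4 stages in 1 fit, two-sided, threshold 0.05) was the main fit; edgeR 4.0.16 and DESeq2 1.42.0 on recovered reads were alternatives, in R 4.3.3. On simulated reads with 200 of 68977 peaks changed by 2 on the log2 scale, limma recovered 73.0% of them for Dev, 83.0% for Dia 6d and 75.5% for Dia 1m against Pre-Dia. It also called 13, 19 and 14 unchanged peaks. All simulated peaks and libraries had the same extra spread and there were no low stretches, so these shares do not give the recovery in the data themselves. Named peaks were the 6 with the largest smallest difference, the 6 with the highest level, the richest run within 10 kb, the 6 highest that overlap the smaller table, those next to each threshold and the 3 most even above a mean of 100. Coordinates are as in the table, whose smallest start is 0. Genes and sequences at the peaks were not analysed here. Other settings tried were the pseudocount, the scaling, a filter on low values, stricter conditions, each library left out and the replicate number as a term.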

Additional observations from a re-analysis of the deposited data

How the results depend on the processing

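The number of peaks depended most on the Pre-Dia libraries: leaving out each library in turn gave between 401 peaks (without Dia 1m replicate 3) and 3428 (without Pre-Dia replicate 2), with 1016 without Pre-Dia replicate 1.5. Leaving out a Pre-Dia library loosens the conditions, since only the other one then has to be low. The mirrored peaks rose as well, from 130 to 221 without Pre-Dia replicate 1.5 and to 1160 without Pre-Dia replicate 2. It was 314 with a pseudocount of 5, 272 after quantile normalization, 134 with a difference of at least 1.5 and 287 with a range below 0.5. It stayed within 1.5 times of 488 with a pseudocount of 0.5 (513), scaling by total reads (381), TMM factors (525) and a mean of at least 10 (488). Of the 272 peaks after quantile normalization 256 were members. The opened peaks were 3.75 times as many as the mirrored ones; this ratio was 1.96 after quantile normalization, with 139 mirrored peaks, 2.41 when scaled by total reads, 4.65 with TMM factors and 2.96 without Pre-Dia replicate 2. Centring on scaffold medians gave 261 in place of 318.

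Members called higher by limma ranged, with each library left out, from 0 to 311 in Dev (38 with all libraries), from 109 to 403 in Dia 6d (341) and from 15 to 362 in Dia 1m (221). Calls over all 68977 peaks, given in brackets from here on, moved as well. Without Pre-Dia replicate 2 the counts were the highest. The lowest Dev count came from leaving out Dev replicate 1.5, which left 1 Dev library. Nearly all Dev calls over the whole table were lost there too, so nothing about the members is drawn from that count. The members' median difference of Dev from Pre-Dia was then 1.34. Without Dev replicate 2, which also left 1 Dev library, most Dev calls over the whole table were lost as well, and this median was 1.52. The Dev count was 18 (42) and 22 (53) without Dia 6d replicates 1 and 2. The Dia 6d count was 109 (2068) without Pre-Dia replicate 1.5, and 159 (812) and 145 (769) when Dia 6d replicates 1 and 2 were left out. The Dia 1m count was 15 (332) without Dia 1m replicate 3, 112 (724) without Dia 1m replicate 2 and 69 (1320) without Pre-Dia replicate 1.5. Quantile normalization gave 22 (75) in Dev and 115 (989) in Dia 1m, and a fit of the 2 stages alone 16 (85) and 16 (407). edgeR gave 26 (744) in Dia 1m. DESeq2 gave 18 (88) in Dev, 160 (1072) in Dia 6d and, among the 270 members it tested, 2 (302) in Dia 1m. The cause was not tested. Planned TMM factors on recovered reads were not run, and factors on the deposited values replaced them. Count models used 8 libraries, with 1 left in Dia 1m. These and the centring were chosen after seeing the data.

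With the replicate number as a block, the members called were 61 (188) in Dev, 10 (92) in Dia 6d and 14 (187) in Dia 1m. Whether the numbers pair the samples cannot be told from these data, and the labels give no shared batch. Deviations of same-numbered libraries correlated between -0.17 and 0.18, and those of other pairs between -0.23 and 0.23. In a stage of 2 libraries the deviations are mirror images of each other, so few of these values are separate.

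Across the 20 named members and 15 settings the smallest difference ran from 0.30 to 4.32; 37 of 300 values moved by more than the spread between replicates and 46 fell below 1. Without Pre-Dia replicate 1.5 it was 0.53 in peak_15356 and 0.30 in peak_44446. Where an arm kept 1 library, it was assumed to vary like the others. Depth limits Pre-Dia replicate 1.5 most.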
